A study of Mus musculus with 12 samples.

Results

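Extracellular matrix and integrin genes were followed through liver, cerebral cortex and cerebellum of a single mouse, at 2 degrees of RNA amplification. The members were all probe sets with a single gene symbol in the platform annotation that named a collagen chain, a laminin chain, an integrin subunit, a matrix metalloproteinase, a tissue inhibitor of metalloproteinases, fibronectin, vitronectin, biglycan, decorin or a protein of the SPARC family. The symbol pattern gave 124 probe sets of 84 genes, of 12422 probe sets and 8251 genes in all. The pattern used no measured value, but earlier results of these data were known when it and all gene lists used below were chosen. The pattern also took in 3 probe sets of Itgb1bp1, which encodes a protein that binds the tail of integrin β1 and is not an integrin. No filter on low values was set, so that all 124 probe sets were tested.

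The extracellular matrix is the protein network around cells. Fibrillar collagens give it tensile strength, while collagen IV and the laminins, trimers of an α, a β and a γ chain, form the sheets of basement membranes under epithelia and around vessels. Fibronectin and vitronectin are adhesive glycoproteins that circulate in plasma and are made in large part by hepatocytes. Integrins are pairs of an α and a β subunit that bind these proteins at the cell surface, metalloproteinases cleave them, and the Timp proteins inhibit the metalloproteinases. The liver sinusoids lack a continuous basement membrane, and the brain parenchyma holds little fibrillar collagen and is rich in proteoglycans.

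An adult NMR-1 mouse gave the frozen liver, cortex and cerebellum, and total RNA of each was hybridised to MG_U74Av2 arrays. In the procedure called 3X, 1 ng of RNA per array went through 3 linear amplifications with a kit made for small samples, and each tissue had 3 such technical replicates. In the standard protocol, called 1X, 5 µg went through a single linear amplification, and each tissue had 1 array. The 2 procedures thus differ in input, in kit and in the number of amplifications at once. The 12 arrays share 1 animal, so that p-values measure only their technical spread.

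Marker genes separated liver from the brain regions. The mean log2 signal of 7 hepatocyte genes was 10.29 to 11.20 in the 3X liver arrays, against 4.91 to 4.95 in cortex and 4.80 to 4.90 in cerebellum. That of 7 neuronal genes was 4.61 to 4.89 in 3X liver, against 5.68 to 6.03 in cortex and 5.81 to 5.99 in cerebellum. At 1X the neuronal mean was 4.26 in liver, against 7.55 in cortex and 7.76 in cerebellum, so that liver and brain lay closer together at 3X. A list of 11 kidney genes, chosen with earlier results of these data known, averaged 3.59 to 3.69 in 3X liver, 2.97 to 3.08 in 3X cortex and 4.07 to 4.20 in 3X cerebellum. Their 1X mean was 3.30 for liver, 2.77 for cortex and 4.20 for cerebellum, the highest in cerebellum under both procedures. Among them, Kap, an androgen-regulated gene of the kidney tubule, had 8.66 in 1X cerebellum, against 4.92 in cortex and 4.66 in liver. Kidney genes are not those of the cerebellum label. As the list was chosen knowing earlier results, its level there is a description and no independent check of the label. Whether RNA of another tissue was present in that sample was not tested. Such RNA would touch each value given for cerebellum or for the mean of the brain regions. Liver replicate 3 stood somewhat apart: its Pearson's r with the other 3X liver arrays over all probe sets was 0.977 and 0.979, against 0.990 between those.

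Many of the matrix and integrin probe sets were dim. The method that made the signals gives no detection call, and the median of the array medians, 3.46 on the log2 scale, is used here as a mark between dimmer and brighter signals. In 60 of the 124 probe sets the mean of every one of the 6 groups was at or below it, against 38.1% of all probe sets. Where a signal is dim, a difference from it does not measure a ratio of RNA, and a fold is given only where both means were above that mark.

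On the 3X arrays, liver stood out by the plasma protein gene Vtn (vitronectin), by the basement membrane collagen Col18a1 and by Fn1 (fibronectin), which were higher than in the brain regions, and by the brain proteoglycan gene Spock2 and by Sparcl1, which were lower. Liver was compared with the mean of cortex and cerebellum with limma, with p-values adjusted over all 12422 probe sets and a call at an adjusted p under 0.05. There were 20 called among the 124 probe sets, with 9 of them higher and 11 lower in liver. That is 16.1% of the members, against 20.4% of all probe sets called (8.17% higher and 12.3% lower), so the share of members called was not above the background. The median difference of the members was 0.02 on the log2 scale, against 0.01 for all probe sets. In 16 of the 20, the 3 liver arrays did not overlap the 6 brain arrays (17.1% of all probe sets were called with no overlap). A log2 difference of at least 1, counted for dim and bright signals alike, was reached by 7 of the 20 (5.46% of all probe sets).

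**Figure D1:**
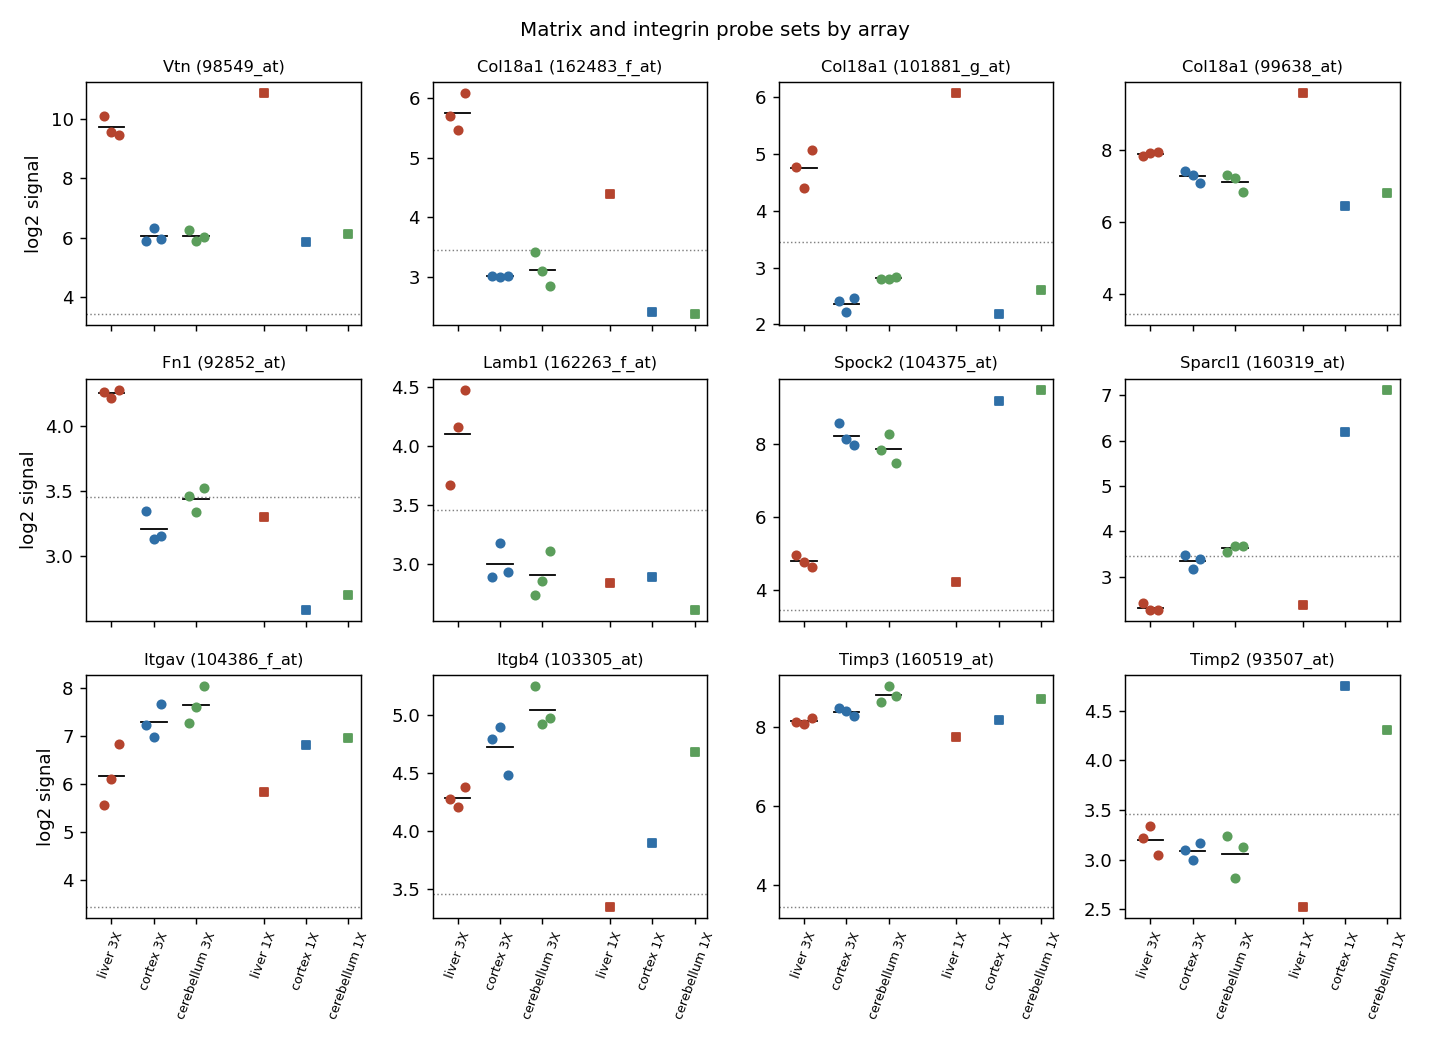
Log2 signal (vertical axis, its range set per panel) of 12 probe sets on the 12 arrays. Circles are single 3X arrays with the mean of 3 as a line, squares are the single 1X arrays, and the dotted line is the median of the array medians, 3.46. The 3 liver circles of Vtn, between 9.47 and 10.10, lie above all brain circles, and those of Spock2, between 4.64 and 4.97, lie below them, while Timp2 separates the tissues only among the squares.

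Among the collagens, the calls were nearly all in Col18a1. This gene encodes the chain of collagen XVIII, a basement membrane collagen that carries heparan sulphate and releases endostatin, and its transcripts start at more than 1 promoter. The probe set 162483_f_at had signals of 5.70, 5.47 and 6.08 in 3X liver, against 3.02, 3.00 and 3.01 in cortex and 3.42, 3.10 and 2.84 in cerebellum. All liver arrays were bright, no brain array reached them, and the brain means were dim. The difference was 2.69 ± 0.15 (SE over 3 liver and 6 brain arrays, limma adjusted p = 3.44e-07).

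The other probe sets of Col18a1 gave differences of unequal size. The signals of 101881_g_at were 4.77, 4.41 and 5.07 in liver, against 2.41, 2.22 and 2.46 in cortex and 2.81, 2.80 and 2.83 in cerebellum, a difference of 2.16 ± 0.13 (limma adjusted p = 5.87e-07). The brightest, 99638_at, had 7.84, 7.91 and 7.93 in liver, against 7.40, 7.31 and 7.07 in cortex and 7.31, 7.21 and 6.84 in cerebellum, which was 1.63-fold higher in liver (0.70 ± 0.11, limma adjusted p = 0.00111). The difference of 101882_s_at was 0.48 ± 0.08, or 1.40-fold (limma adjusted p = 0.0011). In these 4 probe sets liver did not overlap the brain regions. The fifth, 101880_at, was dim in all groups and was not called (-0.04, limma adjusted p = 0.802).

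Few of the remaining collagens were called. None of the 5 collagen IV probe sets, the chains of the basement membrane network, was called, and their differences lay between -0.10 (Col4a2) and 0.10 (Col4a3). Of the 13 probe sets of fibrillar collagens, 1 was called: Col1a2 101130_at, a chain of collagen I, with a difference of -0.31 ± 0.10 (limma adjusted p = 0.0465). The call was lost in 8 of the 9 fits that left out an array. Its liver signals of 2.72, 2.63 and 2.89 were dim and overlapped those of cortex, 3.06, 2.89 and 2.83. The second probe set of the gene, 161156_r_at, gave 0.23 and was not called. Without liver replicate 3 both were called, in opposite directions. The difference was then -0.39 for 101130_at (limma adjusted p = 0.0227) and 0.41 for 161156_r_at (limma adjusted p = 0.0124). The brightest fibrillar collagen probe set was Col5a1 101080_at, a chain of collagen V, with 7.99, 7.93 and 7.99 in liver, 7.92, 7.82 and 7.71 in cortex and 7.86, 7.98 and 7.92 in cerebellum. These groups overlapped. Of the 26 probe sets of other collagens, the 4 of Col18a1 were called. The shares called were 7.69% for fibrillar and 15.4% for other collagens, against 20.4% of all probe sets.

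Promoter sequences are shown for the 3 genes with the largest differences between liver and brain, Vtn, Col18a1 and Spock2, so that the regions that start their transcripts can be seen beside the values. Each is the 250 bases before an annotated start, read 5′ to 3′ in the direction of transcription, from RefSeq (GRCm38.p6). Capitals mark matches on either strand of the box spelled TATAAA and of the one spelled GGGCGG, which bind the general transcription machinery and factors such as Sp1. In the sequence of Vtn, a forward and a reverse match of the first box overlap. For Col18a1 the windows of 2 annotated starts are given.
Vtn, chr11:78498870-78499119, plus strand: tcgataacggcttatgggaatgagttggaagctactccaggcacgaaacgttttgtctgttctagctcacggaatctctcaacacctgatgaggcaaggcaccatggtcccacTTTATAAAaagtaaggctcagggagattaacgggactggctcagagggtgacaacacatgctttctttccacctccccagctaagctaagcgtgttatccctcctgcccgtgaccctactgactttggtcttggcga
Col18a1 start 1, chr10:77166531-77166780, minus strand: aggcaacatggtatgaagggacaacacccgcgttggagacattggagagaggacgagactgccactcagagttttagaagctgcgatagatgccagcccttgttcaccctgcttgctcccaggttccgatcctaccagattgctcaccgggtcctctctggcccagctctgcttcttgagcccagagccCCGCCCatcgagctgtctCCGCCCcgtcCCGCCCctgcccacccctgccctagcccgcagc
Col18a1 start 2, chr10:77113706-77113955, minus strand: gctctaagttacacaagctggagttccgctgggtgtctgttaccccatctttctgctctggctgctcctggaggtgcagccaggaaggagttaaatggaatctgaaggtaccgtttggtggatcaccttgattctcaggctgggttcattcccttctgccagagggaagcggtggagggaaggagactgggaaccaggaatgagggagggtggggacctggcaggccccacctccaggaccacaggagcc
Spock2, chr10:60106007-60106256, plus strand: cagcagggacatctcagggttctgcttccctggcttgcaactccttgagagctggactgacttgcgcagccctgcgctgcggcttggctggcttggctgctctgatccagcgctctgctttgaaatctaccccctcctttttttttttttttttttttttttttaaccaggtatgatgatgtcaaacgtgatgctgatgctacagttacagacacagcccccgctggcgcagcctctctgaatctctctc

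The window of Vtn held the reverse complement of TATAAA from 137 bases before the start, and TATAAA itself from 135 bases before it. The window of the first Col18a1 start held GGGCGG 3 times, all on the opposite strand, beginning 61, 43 and 33 bases before the start, and 1 match of CCAAT, which was also searched on both strands. That of the second start and that of Spock2 held none of these letters. Of 32851 windows of the same length, 12.4% held the first of these motifs, 32.7% the second and 33.8% CCAAT, so each match is a description only. Promoter windows were found for 57 of the 84 genes.

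Among the laminins, 3 of 14 probe sets were called, which is 21.4%, against 20.4% of all probe sets. Probe sets within a gene differed. Lamb1 encodes the β1 chain, common in basement membranes. Its probe set 162263_f_at had 3.67, 4.16 and 4.48 in 3X liver, against 2.89, 3.18 and 2.93 in cortex and 2.74, 2.86 and 3.11 in cerebellum. The groups did not overlap, and the difference was 1.15 ± 0.16 (limma adjusted p = 0.000423). Its other probe set, 101948_at, was dim and gave -0.15 (limma adjusted p = 0.25). The 1X arrays also gave no such gap for 162263_f_at, with 2.84 in liver against 2.89 in cortex and 2.61 in cerebellum.

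The laminin genes called lower had signals below or near the mark for dim signals. Lama2, the α2 chain of muscle and peripheral nerve laminin, differed by -0.31 ± 0.08 (limma adjusted p = 0.0171). Lamb3 161188_f_at, a β chain of epithelial laminin, differed by -0.63 ± 0.11 (limma adjusted p = 0.0017), with 2.50, 2.75 and 2.58 in liver, against 2.71, 3.10 and 3.16 in cortex and 3.56, 3.41 and 3.49 in cerebellum. Liver overlapped cortex and not cerebellum. Against cortex alone neither was called, with -0.19 for Lama2 (limma adjusted p = 0.209) and -0.38 for Lamb3 (limma adjusted p = 0.0623), while against cerebellum alone the differences were -0.43 and -0.88. The kidney genes moved with the contrast of liver and brain too, 2 of 11 called higher and 4 lower in liver, and their part in these laminin differences was not tested. Without liver replicate 2 the call of Lama2 was lost (limma adjusted p = 0.0744).

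Both adhesive glycoprotein genes were higher in liver. Vtn had 10.10, 9.56 and 9.47 in 3X liver, against 5.89, 6.34 and 5.97 in cortex and 6.27, 5.89 and 6.02 in cerebellum. All 3 liver arrays lay more than 3 log2 units above every brain array. The difference, 3.65 ± 0.15, was 12.6-fold and had the smallest p among the members (limma adjusted p = 4.75e-08). At 1X, Vtn had 10.86 in liver, against 5.86 in cortex and 6.13 in cerebellum.

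Fn1 had 4.26, 4.22 and 4.28 in 3X liver, against 3.35, 3.13 and 3.15 in cortex and 3.46, 3.34 and 3.52 in cerebellum. The groups did not overlap, and the brain signals lay near or below the mark for dim signals. The difference was 0.93 ± 0.08 (limma adjusted p = 8.72e-06), and at 1X the sign was the same (0.65). In bulk tissue, fewer cells of a type and less RNA per cell cannot be told apart. The hepatocyte genes named above move with this contrast, 6 of 7 of them called higher in liver, beside 8.17% of all probe sets. Their part in these differences was not tested.

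Neither small leucine-rich proteoglycan was called at 3X, though decorin was near the threshold. Decorin (Dcn), which binds collagen fibrils, had 3.61, 3.21 and 4.22 in liver, against 3.61, 3.21 and 3.52 in cortex and 2.91, 2.42 and 2.83 in cerebellum. Liver overlapped cortex and was above cerebellum, with a difference of 0.60 (limma adjusted p = 0.0614). Without liver replicate 2 it was called (0.83, limma adjusted p = 0.0138), as it was when the 1X arrays were added to the fit (0.88, limma adjusted p = 0.016). Biglycan (Bgn), a relative of decorin, gave 0.24 by the bright probe set 162347_f_at and 0.15 by the dimmer 96049_at.

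The SPARC family, secreted proteins that bind collagen and calcium and modulate adhesion, ran in the other direction, with 4 of its 5 probe sets called and all 4 lower in liver, beside 12.3% of all probe sets called lower. Spock2 encodes testican-2, a proteoglycan that is abundant in brain. Its probe set 104375_at had 4.97, 4.77 and 4.64 in 3X liver, against 8.56, 8.13 and 7.97 in cortex and 7.82, 8.26 and 7.47 in cerebellum. Liver was far below every brain array, 9.45-fold lower (-3.24 ± 0.18, limma adjusted p = 3.44e-07). The second probe set, 102095_f_at, was 1.60-fold lower (-0.68 ± 0.08, limma adjusted p = 0.000135).

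Sparcl1 encodes hevin, which astrocytes secrete and which promotes synapse formation. It had 2.41, 2.26 and 2.26 in 3X liver, against 3.48, 3.16 and 3.40 in cortex and 3.54, 3.69 and 3.69 in cerebellum. The groups did not overlap, but most of the signals were near or below the mark for dim signals, and the difference was -1.18 ± 0.09 (limma adjusted p = 3.93e-06). Astrocyte genes moved with it, 5 of 7 of them called lower in liver, and so did neuronal genes, also 5 of 7. Of all probe sets, 12.3% were called lower. The part of either list in the differences of Sparcl1 and Spock2 was not tested.

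Sparc itself, the founder of the family, was lower in liver than the mean of the brain regions (-0.30 ± 0.09, limma adjusted p = 0.0286). Its liver signals of 2.23, 2.38 and 2.13 overlapped those of cortex, with a difference of 0.03, and lay below those of cerebellum, with a difference of -0.64. The call was lost in 6 of the 9 fits that left out an array, with an adjusted p of up to 0.0886 by limma. Spock1, testican-1, was not called (0.14, limma adjusted p = 0.373).

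Among the integrin subunits, 2 of 21 α and 2 of 10 β probe sets were called (9.52% and 20.0%), against 20.4% of all probe sets. The subunit αv, encoded by Itgav, pairs with several β subunits to bind vitronectin. Its probe set 104386_f_at had 5.56, 6.09 and 6.83 in 3X liver, against 7.23, 6.99 and 7.67 in cortex and 7.26, 7.61 and 8.03 in cerebellum. The liver arrays were spread widely and still lay below all brain arrays, 2.47-fold lower (-1.30 ± 0.26, limma adjusted p = 0.00509). Its other probe sets, 104385_i_at (-0.02) and 98366_at (-0.04), were near the mark for dim signals or below it and were not called.

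Itgb4, the β subunit of the hemidesmosome integrin, had 4.27, 4.21 and 4.38 in liver, against 4.79, 4.90 and 4.49 in cortex and 5.25, 4.92 and 4.97 in cerebellum. It was 1.52-fold lower without overlap (-0.60 ± 0.11, limma adjusted p = 0.00244), by -0.76 against cerebellum alone and by -0.44 against cortex alone (limma adjusted p = 0.0351). Itga7, whose product binds laminin in muscle, was 1.33-fold higher by 160086_at (0.41 ± 0.09, limma adjusted p = 0.0104), while its 161497_f_at (-0.17) and 93061_at (-0.08) were not called. Itgb2l was 1.18-fold higher (0.24 ± 0.07, limma adjusted p = 0.0412) and lost its call under 11 of the other settings. Itgb1, the β1 subunit shared by most matrix receptors, gave 0.49 by 100123_f_at and was not called (limma adjusted p = 0.0917). Against cortex alone this probe set was called (0.80, limma adjusted p = 0.0255), and against cerebellum alone it was not (0.18, limma adjusted p = 0.665). It was also called when the 1X arrays were added to the fit (0.72, limma adjusted p = 0.0221). The dim probe set 100124_r_at of the gene gave -0.03 and was not called.

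Of the 16 metalloproteinase probe sets, 1 was called (6.25%, against 20.4% of all probe sets). Mmp16, a membrane-bound metalloproteinase, was dim and lower in liver by -0.34 ± 0.08 (limma adjusted p = 0.0125), with 3.05 in the highest liver array and 3.03 in the lowest cerebellum array, so that the groups overlapped. Its call was lost without liver replicate 2 (limma adjusted p = 0.0619). Of the 6 Timp probe sets, 1 was called (16.7%, against the same 20.4%). Timp3, the inhibitor that stays bound to the matrix, had 8.13, 8.08 and 8.24 in liver, against 8.49, 8.40 and 8.28 in cortex and 8.63, 9.04 and 8.80 in cerebellum. Liver lay below all brain arrays by a small margin, 1.37-fold lower (-0.46 ± 0.10, limma adjusted p = 0.00645), and its difference was -0.67 against cerebellum alone, while that against cortex alone was not called (-0.24, limma adjusted p = 0.187). For Itgb4 and Timp3, as for the laminins, the part of the kidney genes was not tested.

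Genes that work with these proteins were read from lists of the pathway, with the brightest probe set standing for a gene. The share of genes called between liver and brain was 18.8% for collagen biosynthesis and crosslinking, 19.5% for other matrix genes, 17.4% for the integrin adhesion complex and 20.8% for other proteases and inhibitors. All of these lay near or below the 20.4% of all probe sets called, as did 1 of 10 for other basement membrane genes. Of 16 genes of collagen biosynthesis and crosslinking, 1 was called higher in liver and 2 lower. The higher one was Ppib, a prolyl isomerase of procollagen folding (1.21 ± 0.12, limma adjusted p = 3.82e-05), and the lower ones were the proline hydroxylase subunit P4ha1 (-0.39) and the lysine hydroxylase Plod3 (-0.24). Of 10 other basement membrane genes, 1 was called, Smoc1, a calcium-binding relative of SPARC (0.29). Of 41 other matrix genes, 6 were higher and 2 lower. The cell surface proteoglycans Sdc4 (0.91) and Sdc1 (0.69) were among the higher ones, and the brain proteoglycan Bcan (-0.53) and the glypican Gpc1 (-0.31) were the lower ones.

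Of 23 genes of the integrin adhesion complex, none was called higher and 4 were lower in liver. The 4 lower genes were the kinases Fyn (-1.93 ± 0.17, limma adjusted p = 1.76e-05) and Ptk2b (-1.36), the integrin-associated protein Cd47 (-1.70) and the tetraspanin Cd81 (-0.45). In 2 of the 4, the liver arrays did not overlap the brain arrays (17.1% of all probe sets were called with no overlap). Ptk2b differed strongly between cortex and cerebellum, as given below, so its value against their mean does not describe each region alike. Of 24 other proteases and inhibitors, 2 were higher and 3 lower, with plasminogen (Plg, 8.76) and cathepsin L (Ctsl, 0.70) higher and cystatin C (Cst3, -2.63), cathepsin S (Ctss, -0.73) and the plasminogen activator Plat (-0.34) lower.

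The single 1X arrays gave the same sign of liver minus brain for 18 of the 20 called probe sets. They did so for 7 of the 7 that differed by at least 1 on the log2 scale. For all probe sets called at 3X, the share with the same sign was 92.8%. The exceptions were Lamb3 161188_f_at and Col1a2 101130_at. There is no test at 1X, where a difference of at least 1 on the log2 scale was counted instead. It was reached by 13 of the 124 members, 8 higher and 5 lower in liver, or 10.5%, against 13.2% of all probe sets.

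Of those 13, picked for a large difference between single 1X arrays, 11 had a smaller difference at 3X. Col18a1 162483_f_at (2.69 at 3X, against 1.99 at 1X) and Itgav 104386_f_at (-1.30 at 3X, against -1.06 at 1X) had a larger one. The median size of the 13 was 0.70 at 3X, against 2.00 at 1X, while for all probe sets past 1 at 1X it was 0.61 at 3X, against 1.79 at 1X. Of the 13, 6 also differed by at least 1 at 3X, and 8 were called in the same direction. Among those that were not called were Dcn (0.60 at 3X, against 1.71 at 1X), Bgn 96049_at (0.15 at 3X, against 1.37 at 1X) and Timp2 93507_at (0.13 at 3X, against -2.00 at 1X). Sparcl1 also differed less at 3X but was called, with -1.18 at 3X and -4.27 at 1X.

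**Figure D2:**
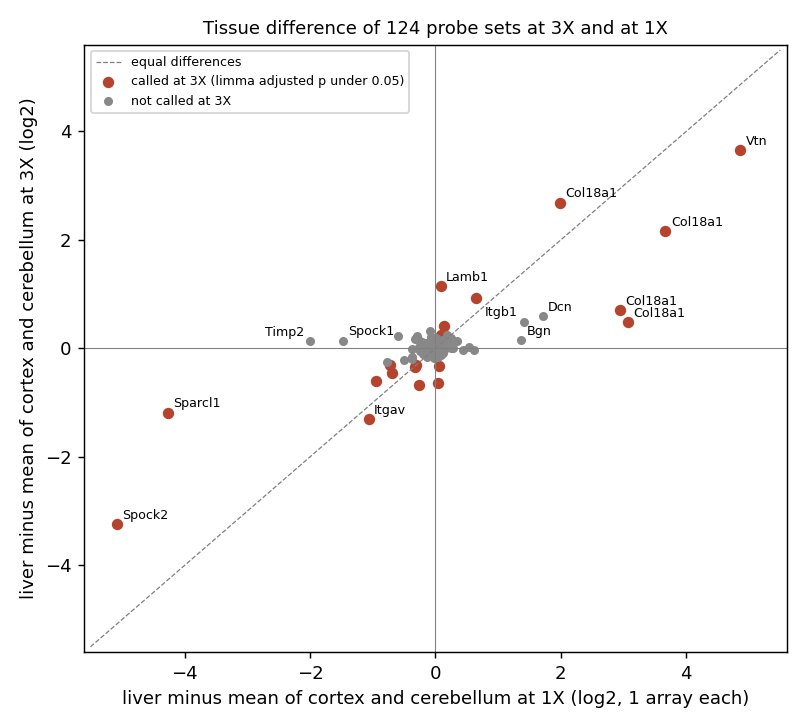
Liver minus the mean of cortex and cerebellum on the log2 scale at 3X (vertical axis) and at 1X (horizontal axis) for the 124 probe sets. Red points were called at 3X, and the dashed line marks equal differences. Vtn, at 3.65 and 4.86, and Spock2, at -3.24 and -5.08, lie at the ends, and Timp2, at 0.13 and -2.00, lies near the horizontal axis.

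Between cortex and cerebellum at 3X, 1 of the 124 probe sets was called, which is 0.806%, against 1.06% of all probe sets (0.628% called lower). It was Sparc, with 2.27, 2.13 and 2.26 in cortex, against 2.99, 2.93 and 2.74 in cerebellum. The groups did not overlap, all signals were dim, and the difference was -0.66 ± 0.10 (SE, 3 against 3 arrays, limma adjusted p = 0.00757). At 1X, Sparc had 2.22 in cortex, against 4.09 in cerebellum. Without cerebellum replicate 2 its adjusted p was 0.0512 and no member was called, and without liver replicate 3, which enters the shared spread, 3 were called, Sparc with Mmp17 and Dcn, beside 2.01% of all probe sets.

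The kidney genes moved with the same contrast, 7 of 11 of them called lower in cortex, beside 0.628% of all probe sets. Their list means were 2.97 to 3.08 in cortex and 4.07 to 4.20 in cerebellum. Some other lists also separated the regions at 3X. Oligodendrocyte genes averaged 4.86 to 4.89 in cortex and 5.16 to 5.32 in cerebellum, with 1 of 6 called lower in cortex. Astrocyte genes averaged 4.86 to 4.96 and 5.03 to 5.16, with 1 of 7 called lower. Endothelial genes averaged 3.51 to 3.53 and 3.58 to 3.73, with none called. The part of these lists in the difference of Sparc was not tested. Among the pathway lists, Ptk2b, a focal adhesion kinase found in neurons, was higher in cortex (3.08 ± 0.16, limma adjusted p = 5.46e-06), and the other genes of the 5 lists were not called.

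The 3X procedure was set against 1X with limma over all 12 arrays, with tissue in the model. Each array counted as a unit, though the 3X arrays were technical replicates of 3 tissues and each tissue had 1 array at 1X. There were 70 called among the 124, with 66 of them higher and 4 lower at 3X. This is 56.5% of the members, against 56.9% of all probe sets, so the overall share was at the background. By direction, 53.2% of the members were called higher, against 37.5% of all probe sets, and 3.23% lower, against 19.5% of all. Without the cerebellum arrays, which moved with kidney genes, 45 members were called from 8 arrays, or 36.3%, against 34.9% of all probe sets in the same fit. Of these, 43 were higher and 2 lower, against 22.0% of all probe sets called higher and 12.9% lower. The median of 3X minus 1X was 0.24 for the members and 0.12 for all probe sets on the log2 scale.

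The difference in direction from all probe sets was examined by level only as a description. Of the 60 members that were dim in all groups, 32 were higher and 1 was lower at 3X (53.3% and 1.67%), against 43.0% and 8.38% of all dim probe sets. Of the 64 brighter members, 34 were higher and 3 lower (53.1% and 4.69%), against 34.0% and 26.3% of all brighter probe sets. In 64 of the 70, the 1X array of each tissue was beyond all its 3X arrays, and in the same direction throughout (49.1% of all probe sets were called so).

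A called difference of at least 1 on the log2 scale, at any level, was found in 4 members, or 3.23%, against 8.44% of all probe sets. Itgb1, Itga7 and Itgb1bp1 were higher and Sparcl1 was lower at 3X. Itgb1 100123_f_at was bright, with 8.06, 7.92 and 8.48 in 3X liver, against 7.63 at 1X. In cortex it had 7.50, 6.84 and 7.73 at 3X, against 5.82 at 1X, and in cerebellum 7.90, 8.07 and 7.94 at 3X, against 6.64 at 1X. All 3X arrays were above the 1X array of their tissue, 2.19-fold on average (1.13 ± 0.21, SE, 9 against 3 arrays, limma adjusted p = 0.00128). The second probe set of the gene, 100124_r_at, was dim in all groups and had the other sign. It gave -0.27 and was not called (limma adjusted p = 0.0608), with -0.69 in liver, -0.04 in cortex and -0.07 in cerebellum.

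Itga7 160086_at was 2.00-fold higher at 3X (1.00 ± 0.09, limma adjusted p = 9.99e-06), and its other probe sets were also called higher (0.58 and 0.52). Itgb1bp1 was split. Its probe set 100991_at was higher at 3X in all tissues (1.22 ± 0.06, limma adjusted p = 1.64e-07), with 3.02 to 3.21 on the 9 3X arrays, against 1.79 to 1.92 at 1X. The probe set 100990_g_at was lower (-0.61 ± 0.08, limma adjusted p = 0.000136), and the third was not called. All signals of these 3 lay near the mark for dim signals or below it, so no direction is given for the gene.

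The other members with the largest positive differences came from several families. Itgax, the αX subunit of myeloid cells, was 1.87-fold higher at 3X (0.91 ± 0.11, limma adjusted p = 7.03e-05), Lamc1 161706_f_at, the common γ chain of laminins, 1.83-fold (0.87 ± 0.08) and Col13a1 102261_f_at, a membrane collagen, 1.81-fold (0.85 ± 0.07). Col18a1 162483_f_at (0.90), Col4a1 (0.83), Fn1 (0.77), Col12a1 92313_at (0.72), Itgb4 (0.71) and Lama5 161702_f_at (0.70) were also higher, and in each at least 1 tissue was dim at 1X. For Col12a1 the bright probe set 92314_at gave 0.30 (limma adjusted p = 0.00798). For Col13a1 the brighter probe set 102262_r_at gave 0.07 and was not called (limma adjusted p = 0.433).

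The members called lower at 3X were few. Itgb5 100601_at, a β subunit that binds vitronectin with αv, had 6.64, 6.41 and 6.63 in 3X liver, against 7.79 at 1X. Its cortex signals were 6.75, 6.48 and 6.67 at 3X, against 7.17 at 1X, and its cerebellum signals 6.71, 6.48 and 6.47 at 3X, against 7.51 at 1X. All 3X arrays were below the 1X array of their tissue, 1.88-fold on average (-0.91 ± 0.12, limma adjusted p = 0.000129). The other 2, beside Itgb1bp1, were Sparcl1 (-2.13 ± 0.46, limma adjusted p = 0.00272) and Sparc (-0.46, limma adjusted p = 0.0453). In both, 3X and 1X overlapped in at least 1 tissue.

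**Figure D3:**
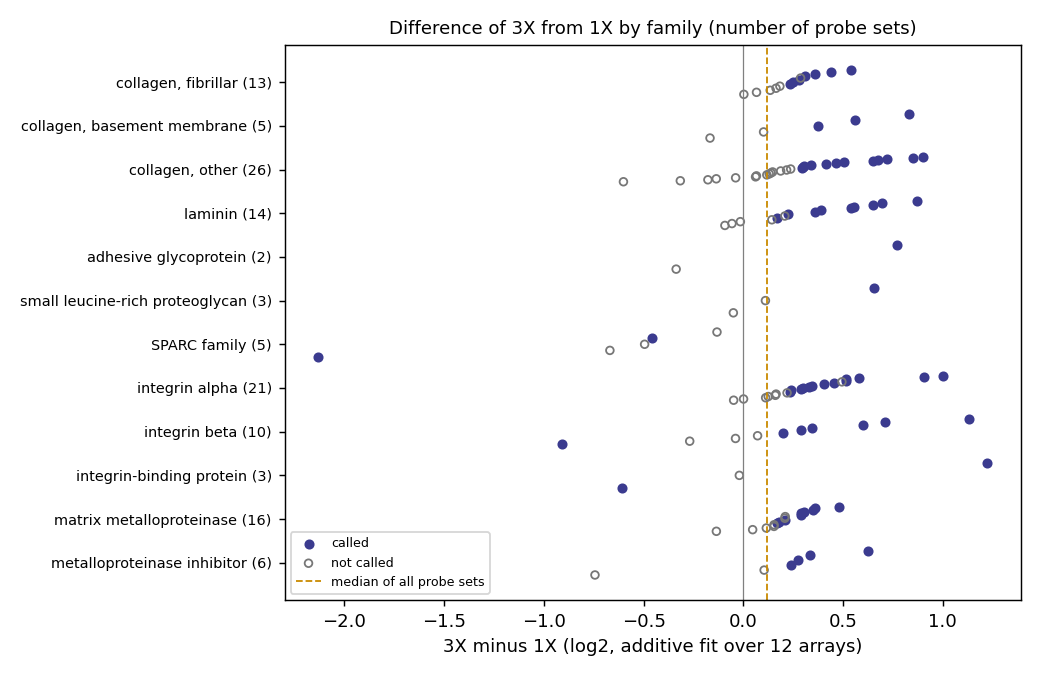
Difference of 3X from 1X on the log2 scale (horizontal axis) for each of the 124 probe sets, by family, with the number of probe sets in brackets. Filled points were called by limma, open points were not, and the dashed line is the median of all probe sets, 0.12. The called points of the collagens, laminins, integrin α subunits, Mmp and Timp genes lie to the right of 0, and both called points of the SPARC family lie to its left, the farthest being Sparcl1 at -2.13.

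By family, the called members of the collagens (22 of 44 probe sets), laminins (9 of 14), integrin α subunits (13 of 21), Mmp genes (9 of 16) and Timp genes (4 of 6) were all higher at 3X. Of all probe sets, 56.9% were called and 37.5% were called higher. The share called was below the first value in collagens and Mmp genes and above the second in all of these families. The integrin β subunits had 6 higher and 1 lower of 10. In the SPARC family none was higher and 2 of 5 were lower, beside 19.5% of all probe sets called lower.

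Whether the difference between 3X and 1X depended on the tissue was read from a moderated F test in limma, which takes the spread of a lone 1X array to be that of the 3X replicates. Of the 124 probe sets, 9 were called, or 7.26%, against 10.4% of all probe sets, which is below the background. Without liver replicate 3, the array that stood apart, 14 were called, or 11.3%, against 14.6% of all probe sets. These were the same 9 with a probe set each of Itgb1, Itga3, Col1a2, Mmp17 and Dcn. The 9 belonged to 7 genes, Sparcl1, Sparc, Spock1, Spock2, Col18a1, Timp2 and Bgn. In each of these probe sets, the tissue with the highest 1X signal had the lowest value of 3X minus 1X, and the 1X signal enters both.

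Sparcl1 had 3.16 to 3.69 on the 3X arrays of the brain regions, near the mark for dim signals, against 6.19 in cortex and 7.12 in cerebellum at 1X. In liver it had 2.26 to 2.41 at 3X, against 2.38 at 1X. The 3X minus 1X difference came to -0.07 in liver, -2.84 in cortex and -3.48 in cerebellum (± 0.14, SE, each; limma adjusted p = 9.40e-06), so that it lay in the brain regions.

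Timp2 93507_at, an inhibitor of several metalloproteinases, had 2.81 to 3.34 on all 9 3X arrays, against 2.53 in liver, 4.75 in cortex and 4.30 in cerebellum at 1X. The 3X arrays of the tissues overlapped, while the 1X array of liver was dim and those of the brain regions were not. The 3X minus 1X difference came to 0.68 in liver, -1.66 in cortex and -1.24 in cerebellum (limma adjusted p = 0.000216).

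For Col18a1 the drop was in liver. The probe set 101882_s_at had 5.65, 5.51 and 5.42 in 3X liver, against 7.86 in 1X liver, a 3X minus 1X difference of -2.33, against 0.37 in cortex and 0.15 in cerebellum (limma adjusted p = 1.20e-05). That of 99638_at came to -1.67 in liver, 0.83 in cortex and 0.31 in cerebellum (limma adjusted p = 0.000229), and that of 101881_g_at -1.32 in liver, 0.17 in cortex and 0.20 in cerebellum. The fourth, 162483_f_at, was higher at 3X in all tissues, and the probe sets of this gene differed in how the procedure moved them.

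Of the rest, Spock1 and Spock2 104375_at were lower at 3X in both brain regions and higher in liver. Spock1 differed by 0.59 in liver, -1.05 in cortex and -1.02 in cerebellum (limma adjusted p = 0.00087), and Spock2 by 0.56 in liver, -0.94 in cortex and -1.62 in cerebellum (limma adjusted p = 0.0124). Sparc differed by -1.20 in cerebellum, against -0.18 in liver and 0.00 in cortex, and Bgn 96049_at by -0.86 in liver, 0.51 in cortex and 0.20 in cerebellum. Liver minus brain was 0.14 for Spock1 at 3X, against -1.48 at 1X, and -3.24 for Spock2 104375_at at 3X, against -5.08 at 1X.

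**Figure D4:**
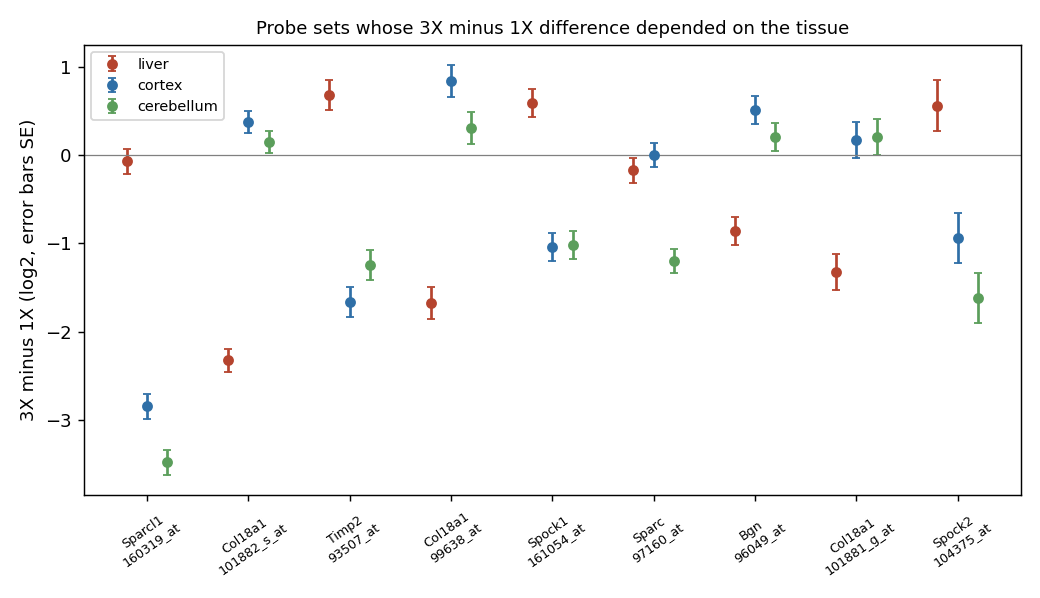
Difference of 3X from 1X on the log2 scale with its SE (vertical axis) in liver, cortex and cerebellum for the 9 probe sets whose difference depended on the tissue. Sparcl1, Timp2, Spock1 and Spock2 lie below 0 in cortex and cerebellum, and the 3 Col18a1 probe sets and Bgn lie below 0 in liver.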

How the data were processed

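Total RNA of 3 tissues of 1 mouse was measured on 12 arrays in 6 groups. The authors deposited log2 signals per probe set made with RMA, per the submitters' processing notes. RMA corrects the background, normalizes quantiles over arrays and summarises probes. Its version is not given in the sources used here, nor are the log base and the number of runs; the base was taken from the values (highest 14.46). Of 12488 probe sets, 66 controls were left out, and 12422 were tested. Symbols came from the platform annotation, where 10833 probe sets had 1 symbol, 396 several and 1193 none. All 124 members were found in a RefSeq gene table (GRCm38.p6), and no symbol changed. Of the members, 31 genes had several probe sets, and 32 probe sets carried a suffix that marks shared or less specific probes.

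Differences were fitted with limma 3.58.1 in R 4.3.3 (two-sided, Benjamini-Hochberg over all tested probe sets), on the 9 3X arrays for tissues and on all 12 for amplification. Arrays have no read depth, and their number limits the precision. Members named were, per comparison, up to 12 in each direction by size among those called without overlap, with others added to complete a family. Members and lists were chosen with earlier results of these data known. Nothing in the labels says that arrays of the same number share a batch, and the main fits have no replicate block. The scripts were tested on simulated arrays.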

Additional observations from a re-analysis of the deposited data

Results flagged for a closer look

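In 9 probe sets, the difference between 3X and 1X was not the same in liver, cortex and cerebellum, by the limma F test of the interaction adjusted over all probe sets. The adjusted p was 9.40e-06 for Sparcl1, 1.20e-05 for Col18a1 101882_s_at and 0.000216 for Timp2 93507_at. It was 0.000229 for Col18a1 99638_at, 0.00087 for Spock1 and 0.00398 for Sparc. For Bgn 96049_at it was 0.00505, for Col18a1 101881_g_at 0.00706 and for Spock2 104375_at 0.0124. Each rests on a single 1X array per tissue. No group had enough arrays for a search for single deviating values.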

How the results depend on the processing

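Quantile normalization, median centring and eBayes with trend and robust settings kept each of the 4 counts within 1.5 times its value. Leaving out each array in turn gave 17 to 25 members called between liver and brain, 0 to 3 between cortex and cerebellum, 56 to 72 for amplification and 9 to 14 for its dependence on tissue. With only probe sets above the median level these counts were 12, 0, 32 and 5, with fewer probe sets tested. A log2 difference of at least 1 left 7, 0 and 4 in the first 3 comparisons. Between liver and brain, probe sets without a suffix gave 13, calls against cortex and against cerebellum alike gave 13 and liver against cortex alone, chosen after seeing the data, gave 18. The 6 cortex and cerebellum arrays alone gave 4, Sparc with Mmp17, Dcn and Col18a1 101881_g_at. The cause was not tested. Without the cerebellum arrays, also chosen after seeing the data, amplification gave 45 and its dependence on tissue 8, with fewer arrays. As a mean per gene, the 3X minus 1X difference of Itgb1bp1 was 0.199 (limma adjusted p = 0.0206), against -0.61 for 100990_g_at alone, since its other probe sets enter the mean.

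With the replicate block, 21 members were called between liver and brain, 19 of them also called without it, and 1 between cortex and cerebellum. Dcn (limma adjusted p = 0.00872) and Itgb1 100123_f_at (limma adjusted p = 0.0467) gained a call. Deviations from the group means correlated at -0.10 to 0.34 between arrays of the same number and at -0.36 to 0.25 between others. Arrays numbered 3 correlated at 0.29 to 0.34 in all 3 pairs of tissues, while those numbered 1 and 2 did not all correlate best with their own number, so that the numbers did not pair all arrays.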
